A study of Mus musculus with 6 samples.

Results

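Neutrophils are marked in mouse tissue by a small set of genes for calprotectin, for the receptor and ligand of granulocyte growth, and for surface receptors of myeloid cells. The levels of 9 such genes, chosen by symbol, were read in 6 tumors driven by a stabilized form of the kinase NIK. They were S100a8, S100a9, Lcn2, Csf3, Csf3r, Ly6g, Retnlg, Trem1 and Clec4d. Of the 23358 gene entries in the table, 8 matched, and Ly6g was not analysed here.

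Neutrophils are short-lived granulocytes made in bone marrow under the control of G-CSF, the product of Csf3, which acts on the receptor encoded by Csf3r. They enter inflamed tissue along gradients of chemokines such as CXCL1, CXCL2 and CXCL5, which bind CXCR2. S100A8 and S100A9 pair to form calprotectin, the main cytosolic protein of neutrophils, which binds calcium and withholds zinc and manganese from microbes. Lipocalin 2, the product of Lcn2, binds bacterial siderophores and so withholds iron. TREM1 amplifies inflammatory signals through the adaptor DAP12, and CLEC4D, a C-type lectin of myeloid cells, signals through the Fc receptor gamma chain. Retnlg encodes resistin-like gamma, a secreted protein of bone marrow and neutrophils. Keratinocytes also make S100A8, S100A9 and lipocalin 2 when skin is wounded or inflamed, so these 3 genes do not by themselves mark a neutrophil.

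All 6 mice were female and carried NT3, a NIK allele without its TRAF3-binding domain that is silent until Cre removes a stop cassette. In Osx-Cre;NT3 mice Cre is driven by the Osterix promoter of bone-forming cells and is held off by doxycycline, which was fed until weaning, and the Cre parent was of mixed C57Bl/6J and CD1 background. In FSP1-Cre;NT3 mice the S100a4 promoter drives Cre in fibroblasts and also in some myeloid cells, and the Cre parent was FVB/n. The NT3 parent was C57Bl/6J in both. Tumors 13, 18 and 25, named by mouse number, arose on the trunk in the Osx-Cre;NT3 line and were found at 150, 168 and 115 days. The FSP1-Cre;NT3 line gave perineal tumors 27 and 36, found at 101 and 52 days, and trunk tumor 29, found at 72 days. The study also reports that FSP1-Cre;NT3 tumors often ulcerated and held more CD45-positive infiltrate, most likely, in its view, because of ulceration. Whether the tumors used here were ulcerated was not given. The average RNA integrity score was higher for the FSP1-Cre;NT3 than for the Osx-Cre;NT3 tumors sequenced. Line, site, strain, doxycycline, latency, ulceration and RNA integrity may therefore have changed together in part, and their effects cannot be told apart.

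Total gene counts ranged from 51824408 to 163297772 per tumor, so that 3 counts, the limit that a count of 0 allows, correspond to 0.0184 to 0.0579 CPM, which are counts scaled to 1 common library size. Such limits cover counting error only, and would be higher if both mates of a pair were counted. CPM of genes below also use edgeR's TMM factors. Tumor 36 stood apart from the rest. The ribosomal RNA entry Rn45s took 13.3% of its counts, against 5.28% to 10.2% in the other tumors, and the part of this in the results was not tested. Its log2 CPM profile correlated with the others at r = 0.874 to 0.906 over 16415 genes, against 0.926 to 0.975 among the other 5 tumors. Ptprc, which marks all leukocytes, was at 113 and 115 CPM in the perineal tumors and at 52.8 to 91.7 CPM on the trunk. The basal keratin gene Krt5 was at 2591 to 6087 CPM, so epithelial transcripts were abundant in every tumor. In bulk RNA, fewer cells of a type and less RNA per cell cannot be told apart.

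The calprotectin genes and Lcn2 were the most abundant of the 8. Scaled to transcript length as well as depth (RPKM, the authors' values), S100a9 averaged 113 RPKM over the 6 tumors and S100a8 105 RPKM, ranks 456 and 490 of all entries. Lcn2 averaged 67.0 RPKM, rank 870. Their order rests on tumor 36. Without it Lcn2 led with a mean of 72.2 RPKM, against 57.6 for S100a8 and 46.1 for S100a9, and Lcn2 was the highest of the 3 in each Osx-Cre;NT3 tumor. The other 5 genes were far lower, with Csf3r at 2.84, Clec4d at 2.49, Retnlg at 2.36, Csf3 at 1.41 and Trem1 at 0.461 RPKM. S100a8, S100a9 and Lcn2 overlapped in their range over tumors, and so did Csf3r, Clec4d, Retnlg and Csf3. The order within each of these sets is therefore not beyond their spread. Csf3 ran from 0.114 to 6.27 RPKM and was highest in tumor 27. Trem1, at 0.0744 to 1.05 RPKM, also overlapped Clec4d, Retnlg and Csf3 in range over tumors. Compared within each of the 6 tumors, however, Trem1 was below both Clec4d and Retnlg every time.

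S100a8 lies on mouse chromosome 3 at 90669071 to 90670034 and S100a9 at 90692633 to 90695691 (mm10), in the cluster of S100 genes. The promoters of both are printed because these are the pair that moved most alike. They are the 250 bases before the RefSeq start on GRCm38.p6, at chr3:90668821-90669070 on the plus strand and chr3:90695722-90695971 on the minus strand. Capitals mark matches on either strand to C/EBP (TTNNGNAA) and to the TATA box (TATAAA), the first a motif of factors that drive myeloid genes.
S100a8: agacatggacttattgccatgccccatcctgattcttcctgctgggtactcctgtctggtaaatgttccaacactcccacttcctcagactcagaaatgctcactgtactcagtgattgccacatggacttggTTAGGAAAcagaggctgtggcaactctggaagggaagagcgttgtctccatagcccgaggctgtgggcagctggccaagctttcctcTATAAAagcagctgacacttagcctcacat
S100a9: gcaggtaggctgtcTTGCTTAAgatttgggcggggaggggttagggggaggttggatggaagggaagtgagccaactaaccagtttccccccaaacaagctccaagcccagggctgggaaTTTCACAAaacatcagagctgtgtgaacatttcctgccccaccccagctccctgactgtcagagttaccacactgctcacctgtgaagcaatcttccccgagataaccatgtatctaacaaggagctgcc
S100a8 held a C/EBP match 117 bases before its start and a TATA box 30 bases before it, and S100a9 held C/EBP matches at 236 and 130 bases. Neither held a match to NF-kB (GGGNNNNNCC) or AP-1 (TGANTCA). Of 32851 mouse promoters of this length, 36.8% held the C/EBP motif, 12.4% the TATA box, 45.8% the NF-kB motif and 6.75% the AP-1 motif, so these matches are common and describe only letters.

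S100a9 stood at 22.5, 17.9 and 4.93 CPM in the Osx-Cre;NT3 tumors 13, 18 and 25, at 15.2 CPM in the FSP1-Cre;NT3 trunk tumor 29, and at 74.6 and 269 CPM in the perineal tumors 27 and 36. S100a8 followed with 26.4, 21.9 and 4.48 CPM in tumors 13, 18 and 25, 25.4 CPM in tumor 29, and 59.6 and 165 CPM in tumors 27 and 36. Both genes were lowest in tumor 25 and highest in tumor 36, and for both the perineal tumors lay above every trunk tumor, by at least 3.31-fold for S100a9 and 2.26-fold for S100a8. S100a9 averaged 172 ± 138 CPM in perineal tumors (SD, n = 2) and 15.1 ± 7.45 CPM on the trunk (SD, n = 4). S100a8 averaged 112 ± 74.5 CPM (SD, n = 2) and 19.5 ± 10.2 CPM (SD, n = 4). The log2 difference, perineal minus trunk, was 3.50 ± 0.65 (SE) for S100a9 and 2.52 ± 0.67 (SE) for S100a8, with adjusted p = 0.263 and 0.288 by edgeR's quasi-likelihood test, Benjamini-Hochberg adjusted over 16971 genes.

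The balance of the 2 subunits also differed among tumors. Per length, the ratio of S100a9 to S100a8 was 0.686, 0.658 and 0.884 in tumors 13, 18 and 25, 0.479 in tumor 29, and 1.01 and 1.31 in tumors 27 and 36. S100a8 was thus ahead per length in each trunk tumor, the subunits were level in tumor 27, and S100a9 was ahead in tumor 36. Their summed level was 17.5 to 85.2 RPKM on the trunk and 270 and 785 RPKM in tumors 27 and 36.

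**Figure D1:**
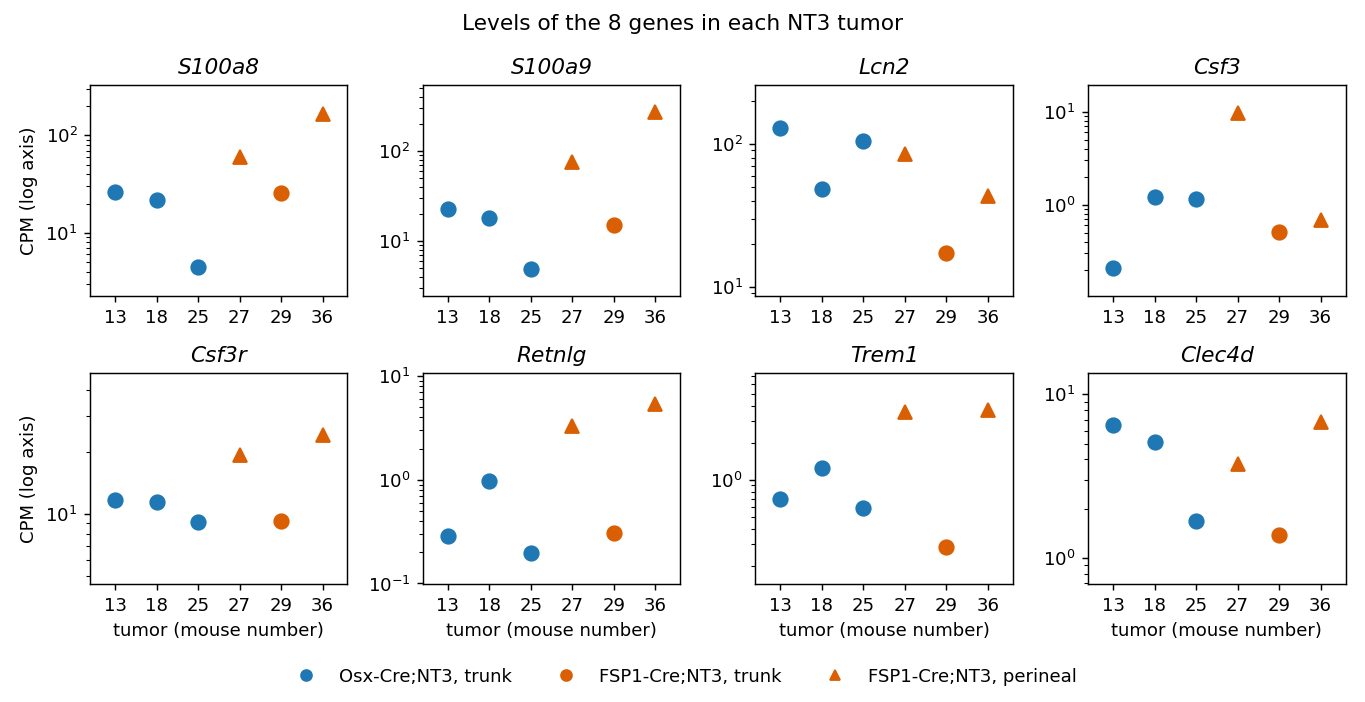
Level of each of the 8 genes in CPM (log axis) in each of the 6 tumors, with colour for the Cre line and triangles for perineal tumors. S100a8, S100a9, Csf3r, Retnlg and Trem1 are higher in tumors 27 and 36 than in all 4 trunk tumors, Csf3 is high in tumor 27 alone, and Lcn2 and Clec4d overlap between sites.

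Csf3r, the G-CSF receptor of the granulocyte lineage (chromosome 4, 126024659 to 126044975), varied least, by 2.65-fold from the lowest to the highest tumor. It stood at 11.7, 11.4 and 9.12 CPM in tumors 13, 18 and 25, at 9.21 CPM in tumor 29, and at 19.4 and 24.2 CPM in tumors 27 and 36. The 4 trunk tumors were close together whatever their line, and both perineal tumors lay above them. Means were 21.8 ± 3.39 CPM (SD, n = 2) and 10.4 ± 1.37 CPM (SD, n = 4), a log2 difference of 1.07 ± 0.25 (SE) with adjusted p = 0.263 in edgeR's test.

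Retnlg (chromosome 16, 48872608 to 48874498) was a low transcript with a wide range. It stood at 0.290, 0.974 and 0.197 CPM in tumors 13, 18 and 25, at 0.308 CPM in tumor 29, and at 3.29 and 5.38 CPM in tumors 27 and 36. These rest on 14 to 150 counts on the trunk and on 214 and 344 counts in the perineal tumors, at least 3.37-fold higher in CPM. The log2 difference between sites was 3.26 ± 0.70 (SE), with adjusted p = 0.263 in edgeR's test. Its promoter, at chr16:48872358-48872607 on the plus strand of GRCm38.p6, is shown because, after S100a9, this gene had the widest site difference of the 8. In it the only match, a C/EBP motif in capitals, lies 246 bases before the start.
Retnlg: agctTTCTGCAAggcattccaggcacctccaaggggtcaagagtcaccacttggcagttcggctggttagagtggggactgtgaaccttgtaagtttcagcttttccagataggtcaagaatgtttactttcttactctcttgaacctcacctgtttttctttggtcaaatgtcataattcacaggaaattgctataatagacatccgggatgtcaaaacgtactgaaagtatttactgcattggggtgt

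Trem1 (chromosome 17, 48232739 to 48246924), the amplifying receptor of neutrophils and monocytes, separated the sites. Its values in the perineal tumors were close, but these tumors are too few to gauge a spread. Its levels were 0.704, 1.26 and 0.591 CPM in tumors 13, 18 and 25, 0.282 CPM in tumor 29, and 3.59 and 3.72 CPM in tumors 27 and 36. Both perineal values exceeded the highest trunk value by at least 2.85-fold, and the lowest tumor was the FSP1-Cre;NT3 trunk tumor. The log2 difference was 2.35 ± 0.60 (SE), with adjusted p = 0.280 in edgeR's test.

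Clec4d (chromosome 6, 123262107 to 123275268), a receptor for mycobacterial glycolipid that macrophages also carry, did not separate the sites. It stood at 6.46, 5.12 and 1.69 CPM in tumors 13, 18 and 25, at 1.39 CPM in tumor 29, and at 3.75 and 6.75 CPM in tumors 27 and 36. The trunk tumors spanned nearly the whole range, and tumor 27 lay between them. The log2 difference between sites was 0.51 ± 0.70 (SE), with adjusted p = 0.801 in edgeR's test.

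Csf3 (chromosome 11, 98701313 to 98703629), which encodes the ligand of Csf3r, was high in 1 tumor. It stood at 9.67 CPM in perineal tumor 27, on 630 counts, and at 0.688 CPM in perineal tumor 36, on 44 counts. Tumors 13, 18, 25 and 29 had 0.207, 1.20, 1.16 and 0.513 CPM. Tumor 36, with the highest Csf3r of all, was therefore within the trunk range for Csf3. The log2 difference between sites was 2.74 ± 1.01 (SE), with adjusted p = 0.411 in edgeR's test, and without tumor 27 it was -0.21.

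Lcn2 (chromosome 2, 32384637 to 32387739) overlapped between sites. Its levels were 129, 48.4 and 105 CPM in tumors 13, 18 and 25, 17.2 CPM in tumor 29, and 84.9 and 43.4 CPM in tumors 27 and 36. Tumor 25, lowest for calprotectin, was the second highest for Lcn2, and tumor 36, highest for calprotectin, was the second lowest. The log2 difference between sites was -0.23 ± 0.73 (SE), with adjusted p = 0.924 in edgeR's test. Within FSP1-Cre;NT3 both perineal tumors lay above trunk tumor 29, and the difference turned to 1.89 in that line alone or with line as a covariate. Per length, the ratio of Lcn2 to summed calprotectin transcripts was 1.33, 0.614 and 5.73 in tumors 13, 18 and 25, 0.210 in tumor 29, and 0.327 and 0.0523 in tumors 27 and 36. Its promoter, at chr2:32387740-32387989 on the minus strand of GRCm38.p6, is printed beside those above because Lcn2 is a known NF-kB target and NIK feeds that pathway. Capitals mark an NF-kB match 102 bases before the start and a C/EBP match at 216 bases.
Lcn2: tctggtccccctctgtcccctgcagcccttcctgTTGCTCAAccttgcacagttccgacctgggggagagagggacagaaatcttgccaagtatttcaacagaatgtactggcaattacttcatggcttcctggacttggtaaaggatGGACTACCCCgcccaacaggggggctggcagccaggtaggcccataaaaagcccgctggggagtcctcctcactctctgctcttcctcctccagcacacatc
The NF-kB motif was absent from the windows of S100a8, S100a9, Retnlg, Trem1 and Clec4d and present in that of Csf3r, 129 bases before its start. Those of Trem1 and Clec4d held C/EBP matches, 35 bases before the start in Trem1 and at 62, 39 and 8 bases in Clec4d.

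Between sites, 0 of the 8 genes passed an adjusted p of 0.05 in edgeR's test, as did 0 of all 16971 genes (0%), the lowest adjusted p being 0.263. By unadjusted p under 0.05, 6 of 8 were higher in perineal tumors, against 8.88% of all genes tested, and 0 of 8 were lower, against 1.63%. The 6 were S100a8, S100a9, Csf3, Csf3r, Retnlg and Trem1. In 5 of 8, all but Csf3 among these 6, both perineal tumors lay above all trunk tumors, against 10.3% of all genes, and in 0 of 8 below them, against 9.36%. The median log2 difference was 2.43 over the 8 genes and -0.02 over all genes. DESeq2 called 5 of 8, against 3.56% of all genes, with adjusted p from 8.96e-05 for S100a9 to 0.0169 for S100a8. The call thus depended on the tool, while the direction of these 5 did not.

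**Figure D2:**
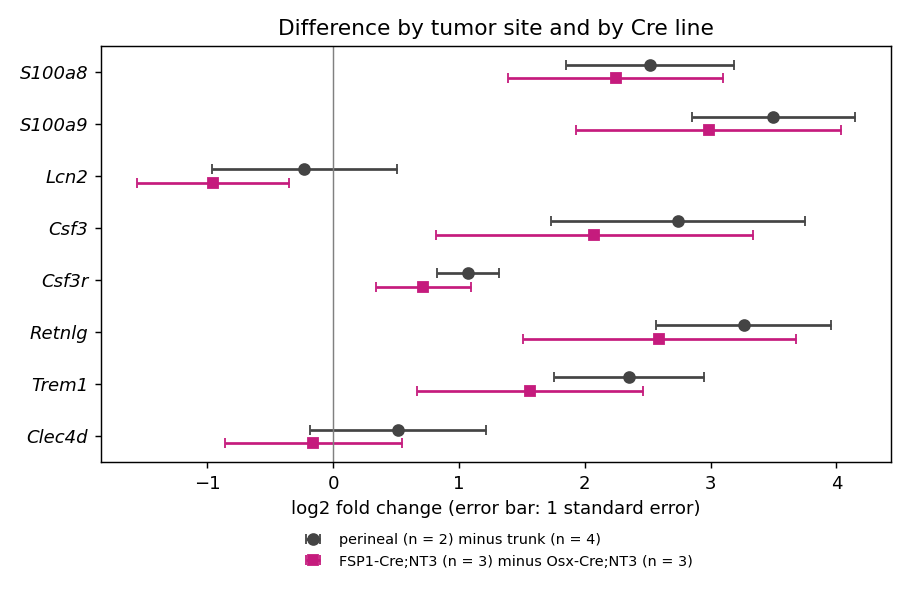
Log2 fold change (points) with ± 1 SE (bars) of each of the 8 genes between sites, perineal minus trunk, and between lines, FSP1-Cre;NT3 minus Osx-Cre;NT3, from edgeR's quasi-likelihood fit. S100a9 shows 3.50 between sites and 2.99 between lines, Lcn2 -0.23 and -0.96.

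Between lines, the same genes leaned toward FSP1-Cre;NT3, but no group stood clear of the other. S100a9 averaged 120 ± 133 CPM in FSP1-Cre;NT3 and 15.1 ± 9.13 CPM in Osx-Cre;NT3 tumors (SD, n = 3 each), a log2 difference of 2.99 ± 1.05 (SE) with adjusted p = 0.458 in edgeR's test over 16415 genes. S100a8 differed by 2.25 ± 0.85 (SE) and Retnlg by 2.59 ± 1.08 (SE), both with adjusted p = 0.458 in edgeR's test. Csf3, Trem1 and Csf3r had log2 differences of 2.08, 1.56 and 0.71, and Clec4d and Lcn2 of -0.16 and -0.96, with adjusted p from 0.474 to 0.935 in edgeR's test. By edgeR's adjusted p, 0 of 8 were called (0% of all genes). S100a8, S100a9 and Retnlg, 3 of 8, had an unadjusted p under 0.05 and were higher in FSP1-Cre;NT3, against 7.31% of all genes, and 0 of 8 were lower, against 3.47%. In 0 of 8 were all FSP1-Cre;NT3 tumors above all Osx-Cre;NT3 tumors, against 9.03% of all genes, and in 0 of 8 below them, against 7.97%. DESeq2 called 1 of 8, S100a9, with adjusted p = 0.0353, against 2.56% of all genes. The comparison of lines shares tumors 27 and 36 with that of sites, so the pair of results is not independent.

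Tumor 29, the trunk tumor of the FSP1-Cre;NT3 line, separates line from site in 1 sample. It lay inside the range of the Osx-Cre;NT3 tumors for S100a8, S100a9, Csf3, Csf3r and Retnlg, and below that range for Lcn2, Trem1 and Clec4d. On trunk tumors alone the log2 difference between lines was 0.53 for S100a8, -0.0021 for S100a9, -0.23 for Csf3r, -0.69 for Retnlg and -1.60 for Trem1. It was -0.75 for Csf3, -1.68 for Clec4d and -2.45 for Lcn2, the largest of the 8 in size. With line in the model, the site difference sets tumors 27 and 36 against tumor 29 alone, the lowest of the 6 for Lcn2, Trem1 and Clec4d. This difference was 3.50 for S100a9, 2.14 for S100a8, 1.24 for Csf3r, 3.80 for Retnlg and 3.68 for Trem1. It was 3.33 for Csf3, 1.91 for Clec4d and 1.89 for Lcn2. Over all genes the median was 0.0038, and all 8 of these differences were positive. None of these had an adjusted p under 0.05 in edgeR's test, and with 1 tumor in the group the lone sample is assumed to vary like the rest.

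Because tumor 36 stood apart, the site difference was also taken without it. It was then 2.30 for S100a9, 1.61 for S100a8, 0.91 for Csf3r, 2.87 for Retnlg and 2.33 for Trem1, with tumor 27 the lone perineal sample. By unadjusted p under 0.05, 5 of 8 were higher, against 1.59% of all genes, namely S100a9, Csf3, Csf3r, Retnlg and Trem1. Without tumor 27 instead, these were 4.11, 3.03, 1.19, 3.51 and 2.33, and S100a9 was the 1 gene of the 8 with a call, with adjusted p = 0.0249 in edgeR's test, where 3.2% of all genes were called. By unadjusted p, 5 of 8 were then higher, against 11.7% of all genes, with S100a8 in and Csf3 out. The sign of these 5 genes held whichever single tumor was left out, while Csf3 went from 3.64 without tumor 36 to -0.21 without tumor 27. Leaving out the FSP1-Cre;NT3 trunk tumor makes site and line the same division of tumors. The S100a9 difference was then 3.47 for both, and that fit does not test site apart from line.

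**Figure D3:**
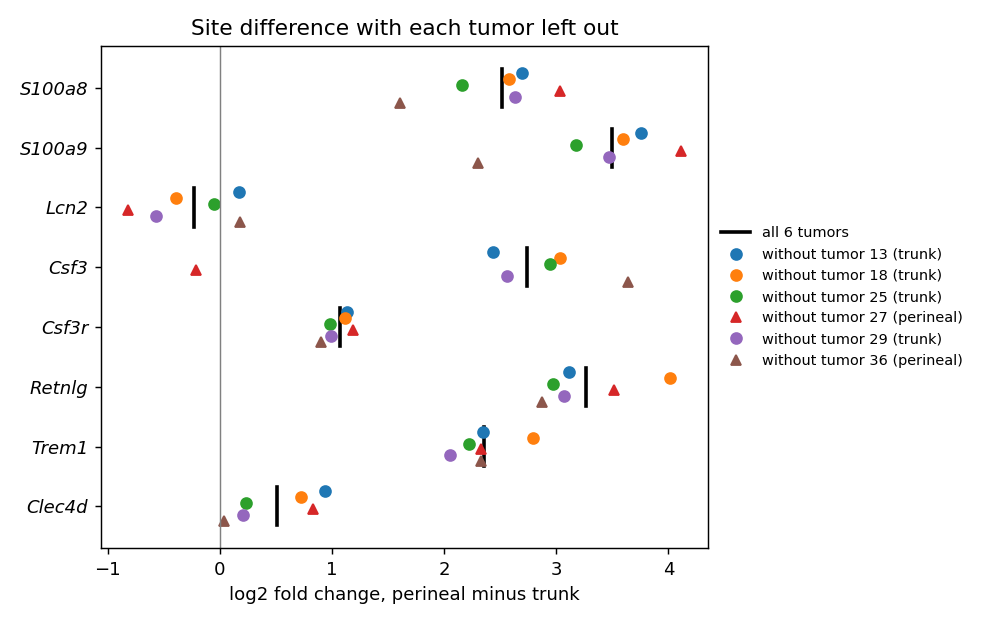
Site difference of each of the 8 genes (log2, perineal minus trunk) with all 6 tumors and without each tumor in turn. S100a8, S100a9, Csf3r, Retnlg and Trem1 stay above 0 throughout, and Csf3 falls to -0.21 without tumor 27. Without the FSP1-Cre;NT3 trunk tumor, site and line are the same division of tumors.

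Other genes of mature neutrophils leaned the same way. Of 28 tested, none was called by edgeR's adjusted p, 12 had an unadjusted p under 0.05 and were higher in perineal tumors (8.88% of all genes), and 0 were lower (1.63%). In 13 the sites did not overlap with perineal tumors higher (10.3% of all genes), and the median log2 difference was 1.11. Both counts include Cxcr1 and Stfa2l1, which passed the filter for sites but not that for lines. Cxcr1 had 0 to 2 counts on the trunk against 10 and 12 in the perineal tumors, and Stfa2l1 had 0 to 24 against 32 and 78. They could be tested only because they were high in the perineal tumors, so they add no support. Without tumor 36, 6 of 27 tested were higher by unadjusted p (1.59% of all genes), with a median of 0.61. Cxcr2, the chemokine receptor of neutrophils, stood at 2.34 to 3.69 CPM on the trunk and at 6.14 and 13.98 CPM in tumors 27 and 36. Fpr1, a receptor for bacterial formyl peptides, stood at 0.0563 to 0.257 CPM on the trunk and at 0.952 and 1.85 CPM in the perineal tumors. Both were named after their values were seen. Pglyrp1, a granule protein and ligand of TREM1, did not separate the sites, with 106 to 211 CPM in Osx-Cre;NT3, 101 CPM in tumor 29 and 94.7 and 166 CPM in the perineal tumors. BC100530 belongs to the stefin A family, whose near-identical copies share reads, and its 0.479 to 87.8 CPM are uncertain for that reason.

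Genes of granules, made mostly by immature neutrophils in the marrow, ranged widely in level. Of 12 looked for, 9 were tested. By unadjusted p, 3 were higher in perineal tumors (8.88% of all genes) and 0 lower (1.63%). The median log2 difference was 1.37, and 0.76 without tumor 36. In 4 of the 9 both perineal tumors lay above all trunk tumors (10.3% of all genes), and in 0 below them (9.36%). Ctsg, 1 of the 3, and Cebpe passed the filter for sites but not that for lines. The smaller perineal group set the filter for sites, so these 2 genes add no support, and the median of 1.37 includes them. Among the rest, from -0.33 for Olfm4 to 3.18 for Ngp, Ltf was the middle gene at 0.49. Elane, neutrophil elastase, had counts in tumor 18 only, at 0.013 CPM, and Mpo, myeloperoxidase, stood at 0.6253 to 1.90 CPM. Olfm4, which epithelia also make, was the highest of the list at 5.44 to 20.7 CPM, and Ltf, lactoferrin, stood at 0.994 to 6.28 CPM. The 6 genes of the phagocyte NADPH oxidase, shared with macrophages, had a median of -0.16. By unadjusted p under 0.05, 0 were higher (8.88% of all genes) and 0 lower (1.63%). Their summed level was 588 and 741 CPM in the perineal tumors and 590 to 875 CPM on the trunk.

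Among cytokines that act on neutrophils, 9 of 19 tested were higher in perineal tumors by unadjusted p (8.88% of all genes) and 0 lower (1.63%), with a median log2 difference of 1.15 and none called by edgeR. Without tumor 36, 5 of 20 tested were higher by unadjusted p (1.59% of all genes). The CXCR2 ligand gene Cxcl5 stood at 0.166 to 0.844 CPM on the trunk and at 2.70 and 19.4 CPM in tumors 27 and 36. Cxcl2, another ligand, stood at 0.0828 to 0.351 CPM on the trunk and at 3.99 and 1.501 CPM. Il1b stood at 54.2 and 55.0 CPM in the perineal tumors, against 3.97 to 37.0 CPM on the trunk. Il6 stood at 2.76 and 3.03 CPM, against 0.169 to 0.844 CPM. Of the 19, 17 had a log2 difference above 0, but it was only 0.06 for Tnf and was -0.50 for Il1a. Cxcl2 was higher in tumor 27 and Cxcl5 in tumor 36, and Il23a, for a subunit of IL-23, was lower in perineal tumors without overlap, at 18.4 and 8.91 CPM against 19.8 to 30.9 CPM. These genes too were named after their values were seen.

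**Figure D4:**
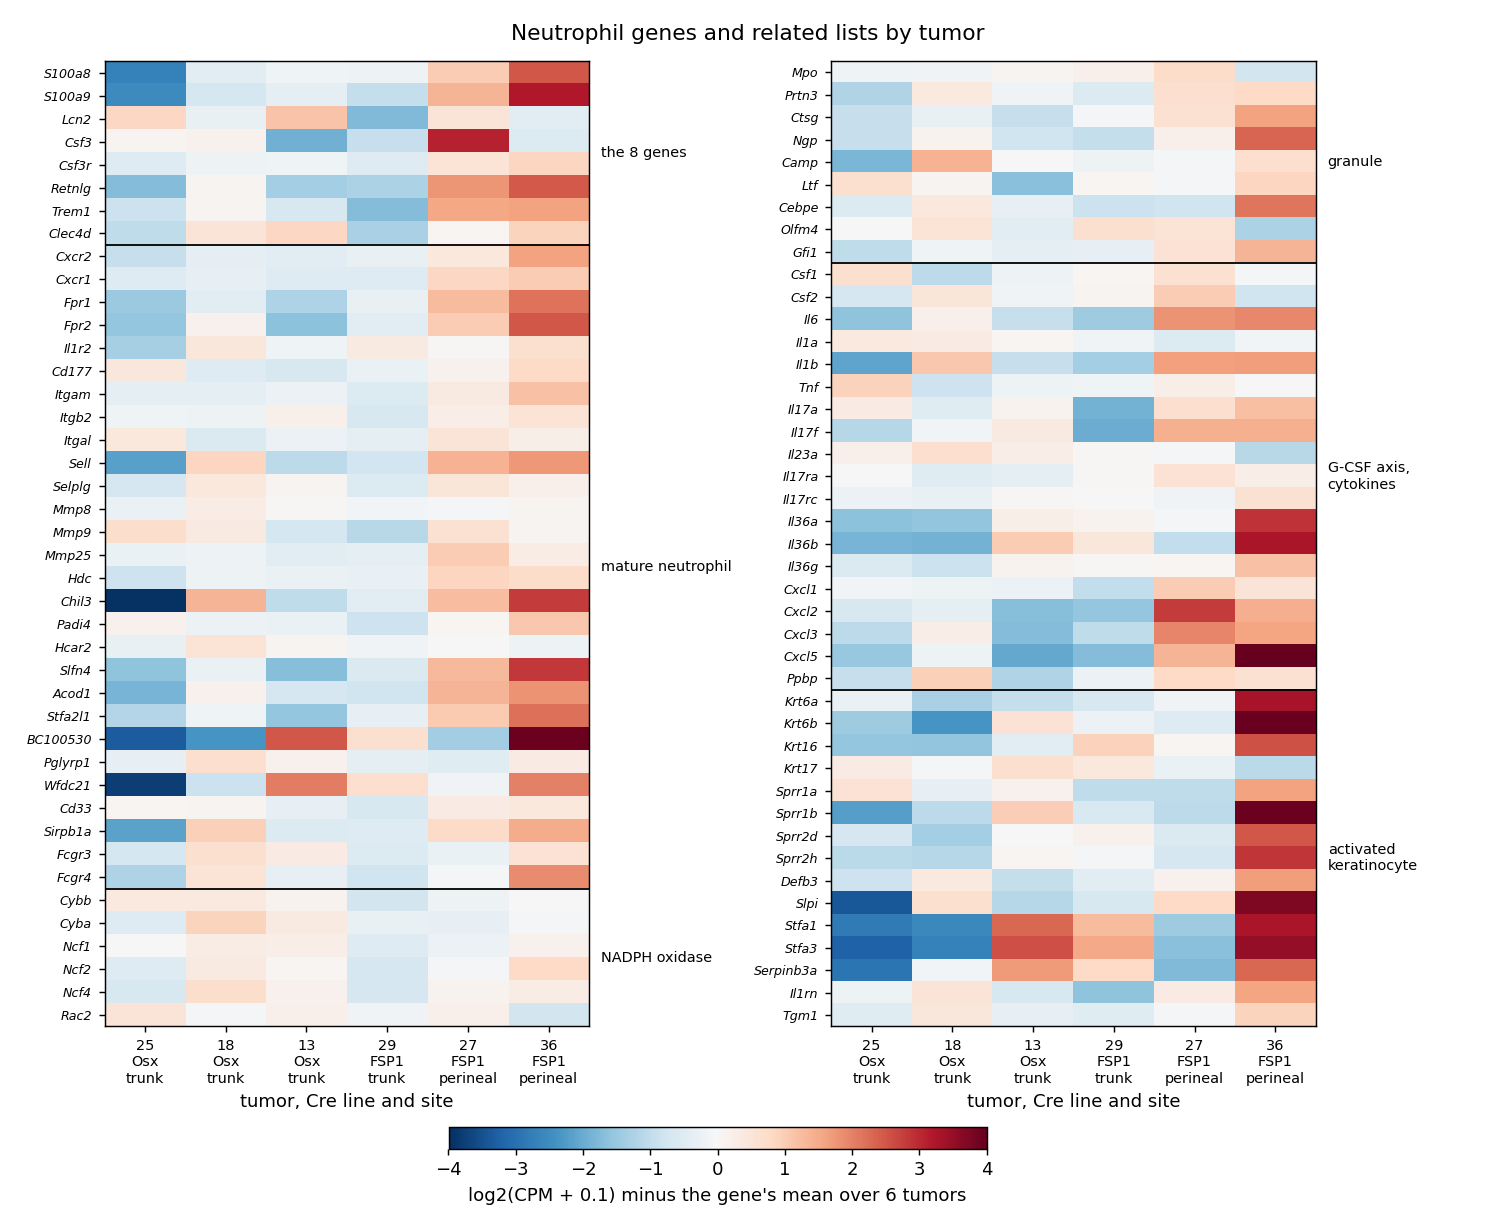
Heat map of 85 genes, the 8 genes and every tested gene of 5 related lists, in the 6 tumors, as log2(CPM + 0.1) minus each gene's mean, with colours limited to ± 4 where the largest value is 4.15. Red in tumors 27 and 36 marks most of the mature neutrophil and cytokine genes that separate the sites, while the activated keratinocyte genes are red mainly in tumor 36 and the NADPH oxidase genes stay pale.

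The partners of these proteins mostly did not separate the sites. Of 13 genes of TREM1 and C-type lectin signaling, 1 was higher by unadjusted p (8.88% of all genes) and 0 lower (1.63%). In 2 of the 13 both perineal tumors lay above all trunk tumors (10.3% of all genes). The 1 higher gene was Clec4e, which encodes the lectin Mincle that pairs with CLEC4D. It stood at 0.282 to 0.935 CPM on the trunk and at 3.13 and 3.44 CPM in tumors 27 and 36. Tyrobp, which encodes DAP12, was at 84.8 and 108 CPM in the perineal tumors and at 85.7 to 245 CPM on the trunk. Fcer1g, the gamma chain, was at 51.5 and 86.9 CPM against 46.2 to 112 CPM. Of 8 genes for calprotectin receptors, 1 was higher (8.88% of all genes), the fatty acid carrier Cd36, and 0 were lower (1.63%). For these lists the counts are near the shares over all genes. Tlr4 stood at 12.7 and 20.7 CPM in the perineal and at 8.41 to 13.6 CPM in the trunk tumors. Of 6 tested genes for partners of lipocalin 2 and for iron handling, 0 passed in either direction (8.88% and 1.63% of all genes). The candidate receptor gene of lipocalin 2, Slc22a17, stood at 5.24 to 16.6 CPM over all tumors.

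The families of these genes gave a mixed picture. Of 12 other S100 genes tested, 0 passed in either direction (8.88% and 1.63% of all genes) and the median log2 difference was 0.08. S100a4, whose promoter drives Cre in FSP1-Cre;NT3 mice, stood at 32.7 to 252 CPM in Osx-Cre;NT3 and at 98.9 to 181 CPM in FSP1-Cre;NT3 tumors. Of the resistin family, Retn stood at 2.00 and 5.75 CPM in the perineal tumors, at 0.624 CPM or less on the trunk, and at 0 in tumor 13. Retnlb stood at 96.8 CPM in tumor 36 and at 0.0828 CPM or less elsewhere. Of 9 other Ly6 genes, 1 was higher by unadjusted p in perineal tumors (8.88% of all genes) and 0 were lower (1.63%).

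Markers of other cells that can make the same transcripts moved too, and their part in these results was not tested. Of 15 activated keratinocyte and antimicrobial genes, 8 were higher (8.88% of all genes) and 1, Krt17, lower (1.63%) by unadjusted p, with none called by edgeR, a median log2 difference of 2.03 and no gene at 0 in every tumor. The sites did not overlap, with perineal tumors higher in 2 of the 15 (10.3% of all genes) and lower in 1, Krt17 (9.36%). Without tumor 36, 0 of 15 passed by unadjusted p and the median was -0.24, whereas without tumor 27, 10 were higher (11.7% of all genes) and the median was 2.63. Krt6a, a keratin of wounded epidermis, stood at 6.25 to 12.9 CPM on the trunk, at 14.2 CPM in tumor 27 and at 155 CPM in tumor 36. Krt16 stood at 10.2 to 58.9, 32.7 and 182 CPM in the same order. Summed over the list, which Krt17 leads, levels were 1979 and 1989 CPM in the perineal and 2274 to 3756 CPM in the trunk tumors. Basal keratinocyte markers, 6 genes, had a median of -0.46 with 0 passing, and sums of 5687 and 10000 CPM against 9956 to 14250 CPM. Suprabasal markers, 9 genes, had 1 higher, a median of 1.48 (-1.08 without tumor 36), and sums of 372 and 1093 CPM against 341.5 to 805.5 CPM.

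Of 11 macrophage and monocyte markers, 2 were higher and 0 lower by unadjusted p (8.88% and 1.63% of all genes, as for the lists below). Their median was -0.28, with sums of 1805 and 2287 CPM in perineal against 1702 to 4029 CPM in trunk tumors. Cd68 stood at 38.5 to 85.3 CPM over all tumors. Of 8 lymphocyte markers 4 were higher and 0 lower, with sums of 94.9 and 107 CPM against 49.3 to 135 CPM. Of 7 mast cell and eosinophil markers 1 was higher, with sums of 292 and 294 CPM against 15.7 to 229 CPM. Both perineal tumors lay above all trunk tumors in 5 of the 8 lymphocyte and 4 of the 7 mast cell and eosinophil markers (10.3% of all genes). The lean toward perineal tumors was thus not confined to neutrophil genes. Of 3 tested blood and platelet markers 0 passed, with sums of 52.7 and 72.2 CPM against 21.5 to 55.0 CPM. Of 8 simple epithelium and mammary markers 4 were higher, among them Csn3, which passed the filter for sites but not that for lines and so adds no support. Their sums were 684 CPM in tumor 27, 4723 CPM in tumor 36 and 696 to 1377 CPM on the trunk.

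Patterns over the 6 tumors were compared by the root mean square difference of centred log2 CPM, where 0 is an identical pattern. Among the 8 genes, S100a8 and S100a9 were closest, at 0.468, followed by Csf3r with Clec4d at 0.684, Retnlg with Trem1 at 0.708 and S100a9 with Retnlg at 0.731. The measure takes in the size of the variation as well as its shape. The 0.684 of Csf3r with Clec4d exceeded the spread of Csf3r about its own mean, 0.532, so it does not mark a shared shape. S100a9 with Csf3, at 2.2, and with Lcn2, at 2.18, were farthest apart. Over the 14154 genes with a mean of at least 1 CPM, the nearest to S100a9 were Cntn1 at 0.416, Pparg at 0.544, Gdf10 at 0.553, Capn6 at 0.599 and Chl1 at 0.604. The nearest to Csf3r were Pik3r5 at 0.126, Cd4 at 0.127, Hhex at 0.136, Cebpd at 0.147 and E130203B14Rik at 0.149. All points come from the same 6 libraries, and the likeness of a gene that varies little, such as Csf3r, to others is small in absolute terms for that reason, so values for S100a9 and Csf3r are not on a par.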

How the data were processed

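RNA was extracted from 6 pulverized whole tumors and sequenced from mRNA libraries. The study had first screened tumors by PCR for low blood and Cd68 content. The authors deposited raw gene counts and RPKM values for 23358 entries (mm10). The labels name bcl2fastq, TopHat2 2.0.6 and HTSeq, whereas the study's methods name HISAT2 and featureCounts; which of these made the table, its annotation and strandedness were not given in the sources used here. Every count is even (0 odd), which would follow if the 2 mates of a pair each counted, so fragments may be fewer than counts. The authors' RPKM served only to compare genes of different length.

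The deposited counts entered edgeR 4.0.16 under R 4.3.3 (filterByExpr, TMM, glmQLFit, glmQLFTest, Benjamini-Hochberg adjustment, threshold 0.05) for the contrasts between lines (16415 genes) and between sites (16971 genes), with no covariate. The p-values measure the spread between tumors of separate mice. DESeq2 1.42.0, other scalings and filters, halved counts, line or site as covariate and the omission of each tumor were alternatives; list counts without tumor 27 or 36 and mean RPKM without tumor 36 were added after seeing the data. CPM used TMM library sizes, and likeness used log2 CPM with a prior count of 2. The scripts were tested on simulated data.

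All 9 genes were to be described one by one; from each related list, called genes and up to 6 by RPKM or by role could be named. Of 202 list symbols 200 were found, 10 under an older symbol; Ly6g and Flg were not analysed here. The genes and lists were chosen with earlier results of these data known. Promoters and motifs came from RefSeq (GRCm38.p6) for 7 of the 8 genes.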

Additional observations from a re-analysis of the deposited data

How the results depend on the processing

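Each of the 8 genes was read under each alternative, which gave 112 values per comparison. Direction and side of the threshold were kept in 99 of 112 between lines and 101 of 112 between sites, and 1 and 6 came to pass it. Since edgeR called 0 of all genes in the main fits and in most alternatives, the side of the threshold says little about these genes. DESeq2 called 420 genes between lines and 605 between sites, against 0 by edgeR, and 1 and 5 of the 8. Without 1 tumor, edgeR called 0 to 567 genes between sites, 567 without tumor 27, 2 without tumor 25 and 0 otherwise, and 0 to 1 of the 8. With site as a covariate the line difference turned for Csf3 (-0.74), Csf3r (-0.22), Retnlg (-0.68) and Trem1 (-1.60), and on trunk tumors alone for Csf3 (-0.75), Csf3r (-0.23), Retnlg (-0.69), Trem1 (-1.60) and S100a9 (-0.0021). With line as a covariate, or in FSP1-Cre;NT3 tumors alone, Lcn2 was 1.89 between sites. Without 1 tumor, Lcn2 ranged from -0.81 to 0.18 and Csf3 from -0.21 to 3.64 between sites, and Clec4d from -0.79 to 0.21 and Csf3 from -0.54 to 2.56 between lines. The turn came without tumor 13 or 36 for Lcn2, without 27 for Csf3 and without 13 or 29 for Clec4d. The cause of these turns was not tested. Without tumor 29, line and site divide the tumors alike, so the fit is the same for both comparisons. With library sizes alone, the median of all genes between lines was 0.126 instead of 0.0146. No paired analysis was possible because the lines share no mouse numbers. Sites rest on 2 perineal tumors, both of 1 line. How far tumor number or depth limits the precision was not tested. Only Retnlg, Csf3 and Trem1 rest on under 50 counts in some tumor, and fragments may be fewer than counts.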

Other observations

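Mast cell genes, outside the neutrophil lineage, differed between the lines in part. Of 7 mast cell and eosinophil markers, 4 (Cpa3, Cma1, Mcpt4 and Kit) had an unadjusted p under 0.05 in edgeR's test and did not overlap between lines, higher in FSP1-Cre;NT3 (7.31% and 9.03% of all genes), and 0 were called by adjusted p. The median log2 difference between lines was 1.45 over the 7 markers and 1.82 over the 8 genes. Cpa3, the mast cell carboxypeptidase, stood at 20.6, 20.9 and 1.44 CPM in tumors 13, 18 and 25 and at 102, 91.3 and 103 CPM in tumors 27, 29 and 36. Tumor 29 was thus level with the perineal tumors for Cpa3, while it lay among the Osx-Cre;NT3 tumors for calprotectin and Csf3r.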
